A study of Mus musculus with 6 samples.

Results

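The genes described here are 7 components of Wnt signalling, Fzd1, Wnt1, Wnt3, Wnt7b, Sfrp5, Dvl2 and Apc, to which peaks of thyroid hormone receptor α (TRα) were assigned in mouse gastrocnemius, the large calf muscle. TRα is a nuclear receptor that binds DNA and changes transcription of nearby genes according to whether thyroid hormone is bound. The study mapped it by chromatin immunoprecipitation and sequencing, to ask how it relates to muscle ageing, in mice aged 6, 15 or 21 months, with 2 animals of each age. All 6 mice gave whole gastrocnemius, with no genotype, treatment or cell sort in the labels, and the sources used here name neither strain nor sex. Whole muscle holds fibres together with vessel, connective tissue and immune cells, so a peak cannot be placed in one cell type. Of 17 muscle marker genes, only Myh7b and Mef2c carried peaks with a gene name, and peaks do not measure expression, so the tissue label could not be checked. A peak was given to a gene when annotation text that had run over from its row held a protein accession of that gene. The rule by which the submitters tied peaks to genes is not stated in what was used here, and whether it was the nearest gene was not tested, so a gene's peaks are the peaks in the stretch given to it and their number depends on the length of that stretch. For the genes above this gave 86 member peaks, out of 3812 peaks with a named gene and 491681 peaks in all, for 7 of 395 named genes.

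In Wnt signalling, secreted Wnt ligands bind Frizzled receptors at the cell surface, and secreted Frizzled-related proteins such as Sfrp5 bind the ligands and compete with the receptors. Inside the cell Dishevelled proteins such as Dvl2 pass the signal on, and Apc is a scaffold of the complex that marks β-catenin for destruction when no ligand is bound. In muscle, Wnt ligands are known for roles in the embryonic muscle field, in satellite cells during repair, and in motor nerve contacts.

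Promoter windows of the 2 members with the most peaks are printed because TRα reads DNA sequence, the core of its site being the half-site AGGTCA. They come from RefSeq on GRCm38.p6, run from 250 bases before to 50 bases after the gene start on the strand of the gene, and capitals mark the match to AGGNCA, the half-site with any base at position 4. The Fzd1 window is chr5:4758167-4758466, minus strand, and the Wnt3 window is chr11:103773925-103774224, plus strand.
Fzd1: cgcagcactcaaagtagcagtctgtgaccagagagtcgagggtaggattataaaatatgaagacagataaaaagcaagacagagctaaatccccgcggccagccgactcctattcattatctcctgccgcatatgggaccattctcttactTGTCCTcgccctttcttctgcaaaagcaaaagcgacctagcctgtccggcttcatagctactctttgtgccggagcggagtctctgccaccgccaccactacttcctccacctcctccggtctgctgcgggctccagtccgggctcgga
Wnt3: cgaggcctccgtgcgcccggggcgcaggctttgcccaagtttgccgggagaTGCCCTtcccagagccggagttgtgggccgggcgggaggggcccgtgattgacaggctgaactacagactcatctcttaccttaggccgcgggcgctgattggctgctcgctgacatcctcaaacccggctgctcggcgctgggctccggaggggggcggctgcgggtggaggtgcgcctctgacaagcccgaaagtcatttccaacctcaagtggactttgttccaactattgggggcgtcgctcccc

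Neither window held the exact half-site AGGTCA on either strand, and neither did those of Wnt1, Sfrp5 and Dvl2. No window was read for Wnt7b and Apc. Of all 32851 windows of 300 bases 16.3% held it, and with only 5 windows a count of 0 does not set the members apart. The looser AGGNCA, which includes AGGTCA, was found in 3 of these 5 windows, against 57.2% of all windows. In Fzd1 the match read TGTCCT at positions 152 to 157 and in Wnt3 TGCCCT at positions 52 to 57, counted from 1 at the 5′ end of the window and both on the opposite strand. No window of the 5 held the direct repeat of AGGTCA with 4 bases between its copies, which 5 of the 32851 windows did. Peak positions below are GRCm39 and these windows are GRCm38.p6, so it was not analysed here which peaks lie in a promoter. The DNA under the peaks was not used here.

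The lists held 29405 to 106152 peaks, and replicate 2 at 15 months was the shortest. Most peaks were shallow in each list, with a median pileup (fragments piled up over the summit) of 4 or 5. Replicate 1 at 6 months had the lowest maximum fold over the paired background library, 269 against 532 to 1543 in the other mice, and the fewest peaks of at least 10-fold, 44 against 108 to 211. Member counts are therefore also given per 10000 peaks of the list.

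Fzd1, a Frizzled receptor for Wnt ligands, held 62 of the 86 member peaks and was the only member with peaks in all 6 mice, a state that 18.5% of named genes shared. Only 3 of the 130 genes with at least 10 peaks had more peaks, namely Grin2a, Atg7 and Foxp2. The Fzd1 counts, replicate 1 before replicate 2, were 15 and 8 in the 6-month mice, 9 and 4 in the 15-month mice, and 12 and 14 in the 21-month mice. The extremes were thus at 6 months in replicate 1 and at 15 months in replicate 2, the mouse with the shortest list. Scaled to 10000 peaks of the list they were 1.90 and 0.754 in the 6-month mice, 0.905 and 1.36 in the 15-month mice, and 1.31 and 1.63 in the 21-month mice. On this scale both the highest and the lowest value were from mice of 6 months, and the ranges of the 3 ages overlapped. The exact Poisson 95% interval of the 15 peaks was 1.06 to 3.13 per 10000 and that of the 8 peaks 0.325 to 1.48, covering counting error only, so these intervals overlap as well.

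**Figure D1:**
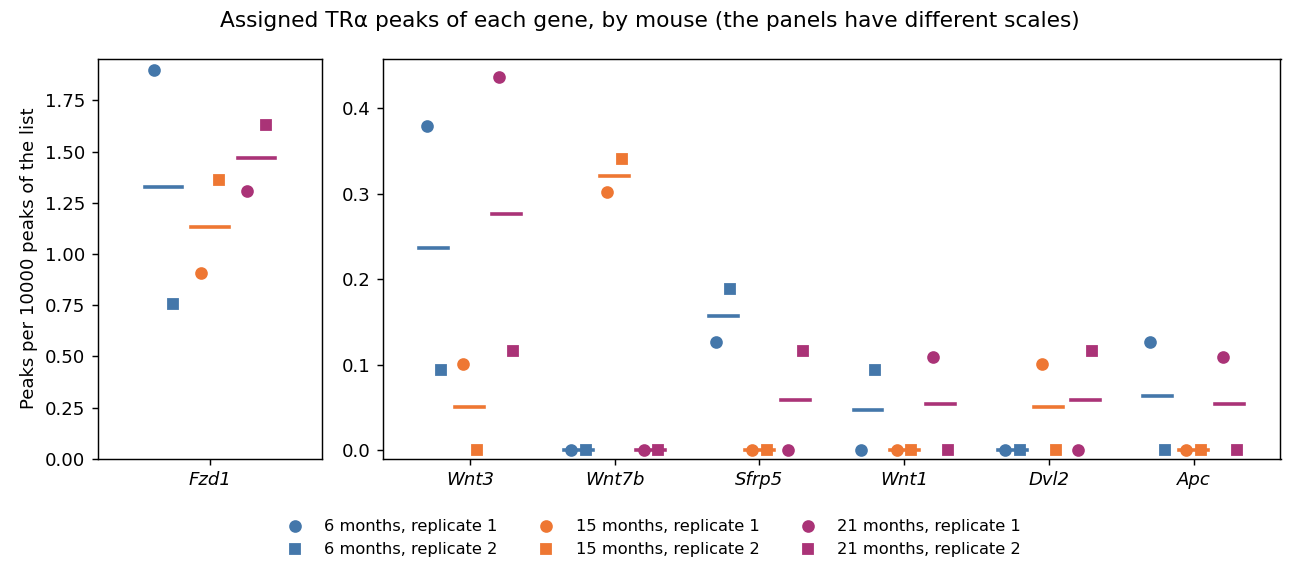
Peaks per 10000 peaks of the list (y axis) for each gene (x axis), with circles for replicate 1, squares for replicate 2, short bars for the mean of 2 mice, and colours for age. Fzd1 lies between 0.754 and 1.90 in every mouse, whereas each other gene is at 0 in at least 1 mouse.

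The mean rate of Fzd1 was 1.33 ± 0.809 per 10000 at 6 months, 1.13 ± 0.322 at 15 months and 1.47 ± 0.226 at 21 months (SD, n = 2 each). No trend with age was detected. Pearson's r was 0.11 (two-sided exact permutation p = 0.822 over the 90 assignments of ages to mice, 0.990 adjusted over 130 genes by Benjamini-Hochberg) and Spearman's rank correlation rho was 0.12 (exact permutation p = 0.844, adjusted 1). Leaving out both 6-month mice, whose age is farthest from the median, gave an r of 0.65. That value compares 2 mice with 2, where the smallest p is 0.333, and was not tested. The r of 0.11 rests on single mice, since r was 0.83 without replicate 1 at 6 months, -0.41 without replicate 2 at 6 months and -0.092 without replicate 2 at 21 months. Of the 130 genes with at least 10 peaks, 0 (0%) passed an adjusted p of 0.05 in this exact permutation test. By Pearson's r 6 genes had an unadjusted p under 0.05, and by Spearman's rho 2 genes had one and 0 passed after adjustment. The smallest p of the design is 0.0111, so that at least 29 of the 130 genes would have had to reach it for any to pass, and the count of 0 says little about single genes.

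The Fzd1 peaks were spread over 284 kb, from 4527027 to 4811340 on chromosome 5, rather than gathered at 1 position. Every one of the 62 peaks of any mouse inside this stretch was assigned to Fzd1, and for each of the 130 genes with at least 10 peaks the span of its peaks likewise held no peak without its name. The nearest peaks outside it, 2.16 kb to the left and 5.01 kb to the right, carried no gene text. In the names table the neighbours of Fzd1 are Gm40261, a long non-coding RNA gene, on the left and Cdk14, which encodes a cyclin-dependent kinase that acts on the Wnt co-receptor Lrp6, on the right. The peaks formed 55 separate regions when overlapping ones were joined, which covered 6.66% of the stretch. Gaps between neighbouring regions had a median of 3.60 kb and reached 19.9 kb, between 4545024 and 4564937.

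**Figure D2:**
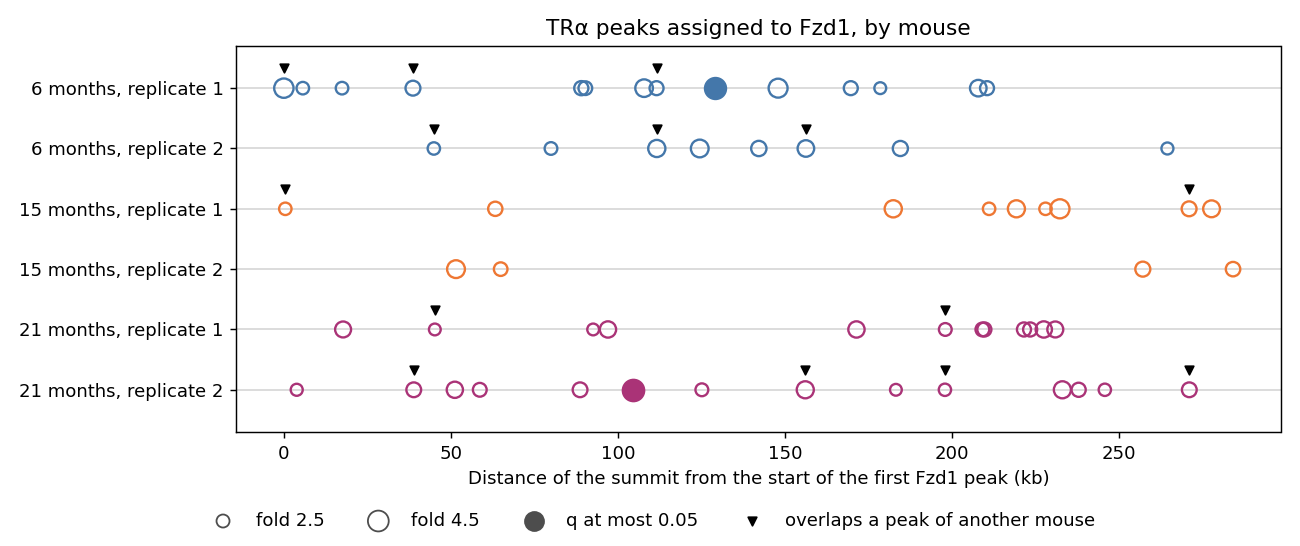
Summits of the Fzd1 peaks in each mouse (rows) by distance in kb from the start of the first peak (x axis), with symbol area rising with fold over background, filled symbols for q of at most 0.05 and triangles over peaks that overlap a peak of another mouse. The 62 peaks run along the whole stretch, 2 are filled, and the 14 triangles are the 7 regions found in a pair of mice.

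The density of peaks within this stretch was set against the rest of chromosome 5. Peaks per Mb in the Fzd1 stretch were 52.8 and 28.1 for the 6-month mice, 31.7 and 14.1 for the 15-month mice, and 42.2 and 49.2 for the 21-month mice. On the rest of the chromosome the density was 32.4 and 42.3, 41.2 and 12.4, and 36.4 and 35.1 peaks per Mb in the same mice and order. The stretch was thus denser in 4 of 6 mice and sparser in replicate 2 at 6 months and replicate 1 at 15 months. The mean was 36.3 ± 14.5 peaks per Mb in the stretch and 33.3 ± 10.9 on the rest of the chromosome (SD, n = 6 mice). The difference of 3.04 ± 13.3 did not exceed the spread between mice (two-sided exact sign-flip permutation p = 0.625, 0.874 adjusted over 130 genes), and it was -0.39 without replicate 1 at 6 months. No difference passed for any of the 130 genes (0%), 11 had an unadjusted p under 0.05 in this exact permutation test, and the smallest p it allows is 0.03125, too large for a few genes to pass after adjustment. The ratio of the means was 1.09 for Fzd1, at percentile 40.0 of the 130 genes, whose median was 1.19. Its span was longer than that of most genes, at percentile 98.5, with a median of 80.2 kb over the 130. The ends of a span are themselves peaks, which raises the density of genes with few peaks most.

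**Figure D3:**
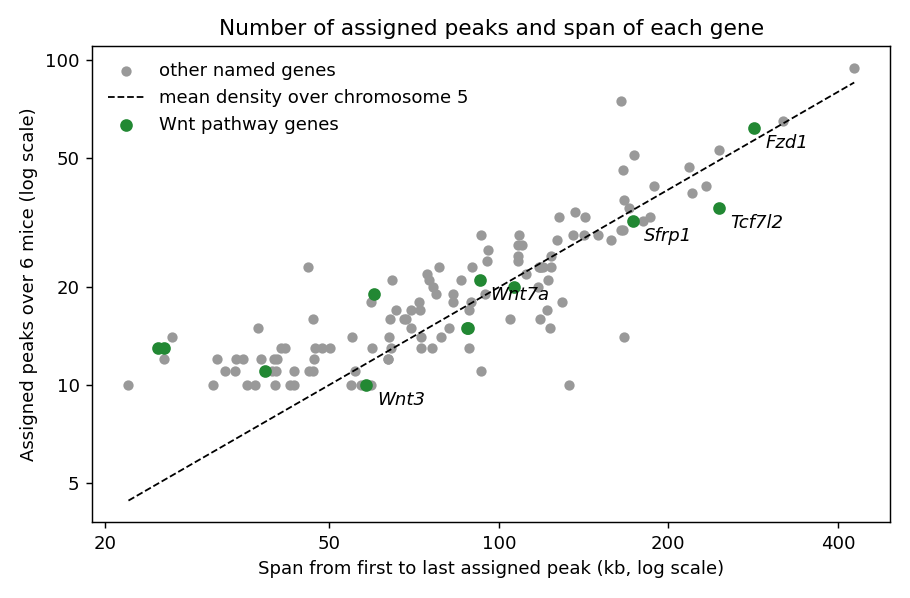
Number of assigned peaks over the 6 mice (y axis, log scale) against the span from first to last peak in kb (x axis, log scale) for the 130 genes with at least 10 peaks, with Wnt pathway genes in green and the mean density of chromosome 5 as a dashed line. Fzd1, with 62 peaks over 284 kb, lies near the line, and genes of short span lie above it, the requirement of at least 10 peaks setting how low a gene can lie.

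The 5 genes nearest to Fzd1 in number of peaks were Foxp2 with 65, Mef2c with 53, Ins1 with 51, Atg7 with 75 and Tlr4 with 47. Their peaks were 1.04, 1.13, 1.63, 2.34 and 1.12 times as dense as those of the rest of their chromosome, in that order. Among 53 other genes with at least 20 peaks, the rates most like those of Fzd1 over the 6 lists were those of Tlr2 (r = 0.82), Pparg (r = 0.61) and Wnt7a (r = 0.54). These points share lists and depth, and no test was made of them.

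The strength of Fzd1 peaks was read from their fold over local background and their pileup. The median fold was 2.73 and 3.04 in the 6-month mice, 2.95 and 2.91 in the 15-month mice, and 2.76 and 2.85 in the 21-month mice. The median of all peaks was 2.73 and 2.82, 2.91 and 3.14, and 2.76 and 2.92 in the same lists, so Fzd1 was higher in 2 mice, lower in 2 and equal in 2. The mean difference was -0.00541 ± 0.146 (SD, n = 6, exact sign-flip permutation p = 1, adjusted 1 over 73 genes). With peaks of −log10 p of at least 3 alone it was 0.27 (exact permutation p = 0.0625, adjusted 0.438). Of the 73 genes with peaks in every mouse, 0 (0%) passed in this exact permutation test and 0 had an unadjusted p under 0.05. The smallest p this test allows is 0.03125, too large for a few genes to pass after adjustment. For Fzd1 the smallest possible p was larger still, since the 2 mice with equal medians add nothing to the test. Median pileups of Fzd1 peaks were 6 and 5 in the 6-month mice, 4 and 5.5 in the 15-month mice, and 4 and 4 in the 21-month mice, against 5 and 4, 4 and 5, and 4 and 4 over all peaks. This difference was 0.417 ± 0.492 fragments (SD, n = 6, exact sign-flip permutation p = 0.25, adjusted 1). Fzd1 was higher in 3 mice and equal in the others. Mice without a difference add nothing to this test, so 0.25 was the smallest p it could give and it could not detect a difference. The pileup difference turned to -2.0 with means in place of medians (exact permutation p = 0.0625, adjusted 0.0681), and the highest pileup in the series was 35511. An adjusted p so close to the unadjusted one means that most of the 73 genes had a p as low. The value with means therefore does not set Fzd1 apart. For pileup 0 of the 73 genes (0%) passed and 1 had an unadjusted p under 0.05 in the exact permutation test, with the same smallest p of 0.03125.

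**Figure D4:**
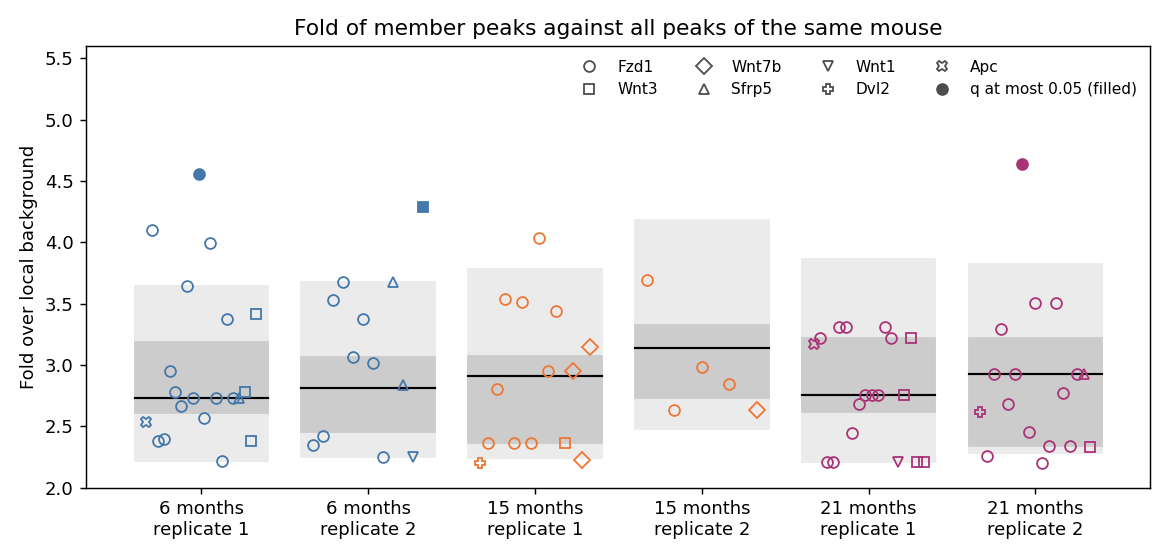
Fold over local background (y axis) of each member peak in each mouse (x axis), with a shape for each gene and filled symbols for q of at most 0.05, over boxes for all peaks of the same mouse (dark, middle 50%; light, 5th to 95th percentile; line, median). Member peaks range from 2.20 to 4.63, mostly inside the light boxes, and 3 are filled.

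Single Fzd1 peaks rested on few fragments. The 62 pileups ran from 3 to 9, and 10 peaks had a pileup of 3, 16 of 4 and 24 of 5. Pileups of at most 5 made up 80.6% of Fzd1 peaks, against 82.2% of all peaks. Folds were therefore stepped, since a peak of a given pileup over the lowest background of a list always had the same fold. In replicate 1 at 21 months the 12 Fzd1 peaks held 6 different folds, and 3 of them had the fold of 2.76 that 27.0% of that list shared. The local background was at its lowest level for 28 of the 62 Fzd1 peaks (45.2%) and for 49.5% of all peaks. The 95th percentile of the background was 1.63 times that level for Fzd1 peaks and 1.84 times for all peaks. The maximum was 2.45 times for Fzd1, 7.96 times over peaks with a named gene and 36068 times over all peaks. These sets differ greatly in size, so their maxima cannot be compared directly.

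Of the Fzd1 peaks, 2 had q of at most 0.05, or 3.23% (Wilson 95% interval 0.889% to 11.0%, counting error only), against 2.21% of all peaks. One was in replicate 1 at 6 months at 4655791 to 4656066 on chromosome 5, with a pileup of 9 (exact Poisson 95% interval 4.12 to 17.1) and a fold of 4.55. The other was in replicate 2 at 21 months at 4631242 to 4631500, with a pileup of 7 (2.81 to 14.4) and a fold of 4.63. Neither position held a peak in any other mouse. The next strongest was in replicate 1 at 6 months at 4527027 to 4527349, with a pileup of 8 and a fold of 4.10, at the left end of the stretch.

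Sharing of positions between mice was limited to pairs. Of the 55 Fzd1 regions, 7 had peaks in 2 mice and 0 in 3 or more. This was 12.7% (Wilson 95% interval 6.30% to 24.0%), against 6.4% of the 458111 regions of the series and 6.33% of those on chromosome 5. The share was 3.17% for Foxp2, 6.00% for Mef2c, 15.9% for Ins1, 23.7% for Atg7 and 2.22% for Tlr4, the genes nearest to Fzd1 in number. Over the 130 genes with at least 10 peaks the median share was 3.64%, with Fzd1 at percentile 87.7. Of the 53 other genes with at least 20 peaks 42 had a lower share than Fzd1 and 11 a higher one. Replicate 2 at 21 months was a partner in 4 of the 7 shared regions. Without it 3 of 45 Fzd1 regions were shared, 6.67% against 5.20% of all regions. Without replicate 1 at 6 months the Fzd1 share was 4 of 43 (9.30%, against 5.16% of all regions) and without replicate 2 at 6 months 4 of 50 (8.00%, against 4.94%). It was 5 of 48 (10.4%, against 5.20%) without replicate 1 at 15 months and 7 of 51 (13.7%, against 5.90%) without replicate 2 at 15 months. Without replicate 1 at 21 months it was 5 of 45 (11.1%, against 5.20%). The Fzd1 share was thus above that of all regions whichever mouse was left out, which was not tested. One region was shared by both mice of 6 months, at 4638148 to 4638812, with folds of 2.73 and 3.53 and summits 73 bp apart. One was shared by both mice of 21 months, at 4724697 to 4725178, with folds of 2.44 and 2.34. The other 5 joined mice of different ages, and the mice of 15 months shared 0 regions with each other. Most pairs of mice differ in age, and replicate 2 at 15 months, with 4 Fzd1 peaks, shared no region with any mouse. These counts therefore do not tell the ages apart. The widest overlap, 262 bp, was between replicate 1 at 15 months and replicate 2 at 21 months at 4797750 to 4798085, where the folds were 2.95 and 2.92. None of the 14 peaks in these regions had q of at most 0.05. With an overlap of at least 50% of both peaks, 2 of 84 member regions were shared in place of 8 of 78, Wnt3 included. The share over all regions was not computed under that rule.

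Wnt3, a ligand with roles in limb and nervous system development, was the member with the next highest number, 10 peaks. They lay between 103655079 and 103713180 on chromosome 11, a span of 58.1 kb. The counts were 3 and 1 in the 6-month mice, 1 and 0 in the 15-month mice, and 4 and 1 in the 21-month mice, so those of the 3 ages overlapped. The rate was 0.237 ± 0.202 per 10000 at 6 months, 0.0503 ± 0.0711 at 15 months and 0.276 ± 0.226 at 21 months (SD, n = 2 each). It did not follow age detectably (r = 0.03, exact permutation p = 0.889, adjusted 0.990, and rho = 0.36, exact permutation p = 0.533, adjusted 0.983). With the 4 older mice alone r was 0.69, a comparison of 2 mice with 2 that was not tested. One Wnt3 peak had q of at most 0.05, in replicate 2 at 6 months at 103685584 to 103686058, with a pileup of 6 (exact Poisson 95% interval 2.20 to 13.1) and a fold of 4.29. The other 9 had folds from 2.21 to 3.42. Of 9 Wnt3 regions 1 was shared, at 103656245 to 103656786, by replicate 1 at 15 months and replicate 2 at 21 months. Both peaks there had a pileup of 3, with folds of 2.36 and 2.33.

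Wnt7b, a ligand with known roles in lung and placenta, had peaks in the 15-month mice alone. Replicate 1 had 3 peaks and replicate 2 had 1, between 85476402 and 85497191 on chromosome 15, whereas the 4 mice of the other ages had 0. The rates were 0.302 and 0.340 per 10000 at 15 months, and a count of 0 allowed up to 0.348 to 0.467 per 10000 in the other mice at the upper end of the exact Poisson 95% interval. The intervals of the single 15-month mice, 0.0622 to 0.882 and 0.00861 to 1.89 per 10000, overlap those of each of the other 4 mice. In replicate 1 the folds were 2.95, 2.22 and 3.14 with pileups of 4, 3 and 5. In replicate 2 the fold was 2.63 with a pileup of 4. No position was shared and no q was at or under 0.05. Peaks in both mice at 15 months and neither at 6 months were found for 8 of 395 named genes (2.03%), and at 15 months and neither at 21 months likewise for 8 (2.03%). Across the 2 contrasts Wnt7b was the only member with either pattern. It kept both with lists of equal length, where 23 and 19 named genes had these patterns in place of 8 and 8. It lost both with a pileup of at least 5, where 8 and 16 named genes had them.

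Sfrp5, a secreted antagonist that binds Wnt ligands and is known as an adipokine, had 4 peaks between 42198935 and 42212901 on chromosome 19. The counts were 1 and 2 in the 6-month mice, 0 in both 15-month mice, and 0 and 1 in the 21-month mice. Both mice of 6 months thus had peaks and neither of 15 months had one, a pattern of 13 of 395 named genes (3.29%), among the members that of Sfrp5 alone. The Sfrp5 rate was 0.127 and 0.188 per 10000 at 6 months, and 0 peaks allowed up to 0.371 and 1.25 at 15 months at the upper end of the exact Poisson 95% interval. The intervals of the single 6-month mice, 0.0032 to 0.705 and 0.0228 to 0.681 per 10000, overlap both. The folds were 2.73 in replicate 1 at 6 months, 3.67 and 2.84 in replicate 2 at 6 months, and 2.92 in replicate 2 at 21 months. Pileups were 4 or 5, no position was shared and no q was at or under 0.05. With lists of equal length, where 7 named genes had the pattern, Sfrp5 lost it and Wnt3 gained it. With a pileup of at least 5, where 26 named genes had it, Sfrp5 kept it and Wnt3 gained it. Under that limit Sfrp5 also had peaks in both mice of 6 months and neither of 21, a pattern of 22 named genes. Over all deposited peaks members showed none of the other directions: both mice of 6 months against neither of 21 (3.04% of named genes), both of 21 against neither of 6 (2.28%), and both of 21 against neither of 15 (4.56%). With 2 mice against 2 the smallest p is 0.333, so these patterns were counted and not tested.

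The remaining members had 2 peaks each, in different mice and at different positions. Wnt1, a ligand needed for the midbrain and the founding gene of the family, had 1 in replicate 2 at 6 months at 98696068 to 98696274 and 1 in replicate 1 at 21 months at 98688870 to 98689384, both on chromosome 15. Their folds were 2.25 and 2.21, each on a pileup of 3, the lowest in the lists. Dvl2, a Dishevelled protein that carries the signal from Frizzled, had 1 in replicate 1 at 15 months at 69896229 to 69896551 and 1 in replicate 2 at 21 months at 69891496 to 69891774, on chromosome 11. Their folds were 2.20 and 2.61 with pileups of 4 and 5. Apc had 1 in replicate 1 at 6 months at 34349770 to 34350009 and 1 in replicate 1 at 21 months at 34343428 to 34343736, on chromosome 18. Their folds were 2.53 and 3.17, both on a pileup of 5. The q of each of these 6 peaks was above 0.05, and no age had peaks of any of the 3 genes in both of its mice.

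Both mice of 6 months had peaks of Fzd1, Wnt3 and Sfrp5, 3 of 7 members against 43.3% of named genes. At 15 months this held for Fzd1 and Wnt7b (32.9% of named genes) and at 21 months for Fzd1 and Wnt3 (43% of named genes). All members together had 20 and 12 peaks in the 6-month mice, 14 and 5 in the 15-month mice, and 18 and 17 in the 21-month mice. Per 10000 peaks this was 2.53 and 1.13, 1.41 and 1.70, and 1.96 and 1.98. The 2 mice of 21 months were close to each other and lay within the range of those of 6 months. The median fold was 2.77 over the 86 member peaks, against 2.82 over all peaks. The middle 50% of the folds ran from 2.38 to 3.31 for members and from 2.45 to 3.19 for all peaks. A fold of at least 4 was reached by 5 member peaks (5.81%), against 3.39% of all peaks, which was not tested. None of the members reached a fold of 10. Only 910 of the 491681 peaks of the series did, so few that none would be expected among 86. Of the member peaks, 3 had q of at most 0.05, or 3.49% (Wilson 95% interval 1.19% to 9.76%), against 2.21% of all peaks. Regions shared by 2 mice were 8 of 78, or 10.3% (5.29% to 19.0%, Wilson), against 6.4% of all regions. Without replicate 2 at 21 months they were 3 of 66, or 4.55%, against 5.20% of all regions. They were 5 of 61 (8.20%) without replicate 1 at 6 months, 5 of 69 (7.25%) without replicate 2 at 6 months and 5 of 67 (7.46%) without replicate 1 at 15 months, against 4.94% to 5.20% of all regions. Without replicate 2 at 15 months they were 8 of 73 (11.0%, against 5.90%), and without replicate 1 at 21 months 6 of 62 (9.68%, against 5.20%).

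Other genes of the pathway were counted in the same way. Of a list of 87 Wnt pathway genes 32 were named, of which 8 had peaks in all 6 mice, namely Fzd1, Wnt3a, Wnt4, Wnt5a, Wnt7a, Sfrp1, Gsk3b and Camk2b. Of 12 with at least 10 peaks, 0 followed age in the exact permutation test at an adjusted p of 0.05. Their r was above 0 for 8 and below 0 for 4, against 66 and 64 over all 130 genes. This split was not tested. Among ligands, Wnt7a, which acts on satellite cells, had 21 peaks and a median fold of 2.92. Wnt3a and Wnt4 had 13 each and Wnt5a 11, with median folds of 2.87, 2.95 and 2.73. Among receptors, Fzd2 had 4 peaks, the co-receptor Lrp6 15 and its relative Lrp5 3, all of Lrp5 in replicate 1 at 15 months. Sfrp1, the relative of Sfrp5, had 32 peaks, with 6 and 5 in the 6-month mice, 7 and 4 in the 15-month mice, and 3 and 7 in the 21-month mice. Of the destruction complex, Axin2, also a target of the pathway, had 19 peaks, the kinase Gsk3b 15, and Axin1 and Apc2 1 each. Tcf7l2, a transcription factor that β-catenin joins on DNA, had 35 peaks, with 4 and 4 in the 6-month mice, 12 and 0 in the 15-month mice, and 10 and 5 in the 21-month mice. The highest folds of the list were those of calcium/calmodulin-dependent kinase genes, 20.2 for Camk2g and 9.93 for Camk2b, while no other gene of the list exceeded the 4.63 of Fzd1. Of the genes in this list other than the members, only Camk2b with 3 peaks and Camk2g with 2 had any peak with q of at most 0.05.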

How the data were processed

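TRα ChIP-seq peaks of 6 gastrocnemius muscles were analysed, 2 mice at each of 3 ages, grouped by the sample titles. Chromatin was fixed, sonicated and precipitated with an antibody to TRα, per the labels' protocols. The tools named are MACS2 2.1.1.20160309, Trimmomatic 0.36, SAMtools 1.3.1 and HOMER 3, and the builds GRCm39 and mm10, per the submitters' processing notes. The sources used here name no aligner and no caller options. Scaffold names of the lists belong to GRCm39. Peak names set each library against one with the prefix IN and the same age and number, read here as its input, so calls were made per mouse.

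Pileup, as deposited, is a coverage signal at the summit. Fold, as deposited, is the ratio of pileup to local background, each plus 1. The authors gave p and q on a −log10 scale, with a lowest −log10 p of 2.00 to 2.01 per list. Peak width in bp was read from the same deposited tables. All are the authors' values for a peak and were compared within a list. The BED lists matched the tables in peaks and pileup for 6 of 6 mice. Read totals were not used here, so depth is known only through the background: its lowest level was 0.633 to 1.20 fragments.

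Gene names came from annotation text that followed 3987 peaks. Protein accessions in it were matched by accession to symbols of the GRCm38.p6 RefSeq table, which named 3812 peaks (0.775% of all) and left 175 unnamed. Only genes with long annotation are named this way, and absence of a name or a peak does not show absence of binding. The chromosome in that table equalled that of the peaks for 7 of 7 members. Background was recovered as (pileup + 1) / fold − 1 and called lowest within 1%. Peaks overlapping by 1 bp or more were joined into regions. Tests were exact permutation tests over mice, run for all genes with at least 10 peaks (rates, density) or with peaks in all 6 mice (fold, pileup), with Benjamini-Hochberg adjustment, and were tested on simulated data. The text names all members, the fixed pathway list, and the genes nearest to Fzd1 in rate (3) and number (5). Width, and the genes above Fzd1 in number, were looked at after their values were seen. The members and lists were chosen with earlier results of these data known. Alternatives were limits on q, p and pileup, other scalings, a replicate block, other overlap rules and leaving out each mouse. Equal lists kept the 29405 peaks of highest −log10 p, with ties ordered by peak name. Python 3.11.15, numpy 2.4.6, pandas 2.3.3, scipy 1.17.1 and matplotlib 3.10.9 were used.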

Additional observations from a re-analysis of the deposited data

How the results depend on the processing

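The p of Fzd1 against age stayed above 0.05 under all 13 alternatives (exact permutation p 0.1 to 0.9, adjusted 0.667 to 1), but the sign of r did not hold. It was -0.28 with q of at most 0.05, where Fzd1 has 2 peaks, -0.085 with −log10 p of at least 3, and -0.62 with a pileup of at least 5, and leaving out single mice gave -0.41 (replicate 2 at 6 months) to 0.83 (replicate 1 at 6 months), with -0.092 without replicate 2 at 21 months. For the limits on p and pileup the cause was not tested. The number of genes whose rate followed age was 0 under all 13 alternatives, with 0 to 7 at an unadjusted exact permutation p under 0.05. Fewer genes could be tested with −log10 p of at least 3 (48), a pileup of at least 5 (44) and lists of equal length (30). With q of at most 0.05 only Fzd1 was, kept although it fell under the minimum of 10 peaks. The count of 0 is no sign of stability. The smallest p was 0.0278 with the replicate block and 0.0333 with a mouse left out. In those fits 66 to 82 genes would have had to reach it for any to pass. The difference in fold from the list was 0.27 with −log10 p of at least 3 and -0.0513 to 0.0377 without single mice, and that in pileup was -2.0 with means and 0.3 to 0.5 without single mice. The density difference was -0.39 to 6.49 peaks per Mb without single mice and 6.76 in the middle span.

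Member regions shared by 2 or more mice were 8 of 78 in all, 2 of 84 with an overlap of 50% of both peaks and 17 of 63 within 1 kb. They were 3 of 37 with −log10 p of at least 3, 0 of 3 with q of at most 0.05 and 2 of 45 with a pileup of at least 5. Without single mice they were 3 of 66 (replicate 2 at 21 months left out) to 8 of 73 (replicate 2 at 15 months left out). The share over all regions was not computed under the other overlap rules and limits. These counts therefore do not set members apart from other regions. Contrasts between ages gave 68 gene entries over 6 directions, 2 with q of at most 0.05 and 133 to 193 without single mice, where 1 mouse stands for its age. For members these were 3 entries, 0 with q of at most 0.05 and 4 to 6 without single mice. Leaving out mice in these contrasts, and the limit on q and the scaling by chromosome for all genes, and the Fzd1 and series-wide shares without single mice, were chosen after seeing the data.

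The replicate numbers are shared by the ages in the labels only as numbers. Differences between replicates 1 and 2 over 130 genes correlated at -0.02, -0.14 and 0.10 between pairs of ages. These genes had a median of 17 peaks over all lists, so counting error could hide a pairing. The correlations therefore cannot tell whether the numbers pair the mice. With the replicate block Fzd1 had r = 0.11 with age (exact permutation p = 0.778 over 36 assignments), 0 genes passed, and 3 had an unadjusted p under 0.05, against 6 without the block.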

Other observations

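The position of Fzd1 peaks along the stretch differed from mouse to mouse, a pattern singled out after its values were seen and not tested. Of the 62 summits 30 lay left of the midpoint of the stretch and 32 right of it. In the 6-month mice 10 of 15 summits of replicate 1 and 5 of 8 of replicate 2 lay on the left. In the 15-month mice it was 2 of 9 and 2 of 4, and in the 21-month mice 4 of 12 and 7 of 14. Both 6-month mice thus had more summits on the left than on the right, and the other 4 mice had as many or fewer. The median summit lay 112 and 133 kb from the left end in the 6-month mice, 219 and 161 kb in the 15-month mice, and 203 and 141 kb in the 21-month mice. Within a mouse the longest gap between neighbouring summits ran from 35.1 kb in replicate 2 at 21 months to 192 kb in replicate 2 at 15 months, which had 4 peaks.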
